A study of Mus musculus with 6 samples.

Results

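Axin2, Myc, Sox9, Ccnd1, Nkd1, Sp5, Cd44, Tcf7, Tcf7l2 and Lef1, a set of 10 genes that are targets of Wnt signaling or encode the TCF/LEF factors through which it acts, were examined among the 24736 gene symbols of the RNA-seq table. The set is a list of names, and all 10 were found. RNA-seq was performed on intestinal crypts of WT and Mtg16 KO mice, with 3 libraries per group that are described as biological replicates. All mice were males of 12 weeks of age, and no drug treatment is labelled. Crypts were released from the full length of the gut by 30 min in 2 mM EDTA, so stretches of the intestine were mixed. The study describes Mtg16-/- mice received from another laboratory, whereas the sample labels call the knockout CRISPR induced, and the source of the allele was not resolved here. The comparison asks whether genes of the Wnt program in the crypt differ when the co-repressor MTG16 is missing.

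In the crypt, Wnt ligands and R-spondins bind receptors on stem and progenitor cells, which protects β-catenin from destruction. β-catenin enters the nucleus and binds TCF/LEF proteins on DNA, where it displaces co-repressors and turns on target genes. MTG proteins are co-repressors without DNA-binding activity of their own, and members of the family have been found to associate with TCF factors. Wnt activity is highest at the crypt base, where it maintains stem cells and supports Paneth cells, and it fades toward the villus, where enterocytes mature.

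The values are TPM, transcript abundances corrected for transcript length and scaled to the same library total. How many reads stand behind a value cannot be read from them. Cbfa2t3, which encodes MTG16, was listed at 3.67 to 6.69 TPM in WT and 3.23 to 6.43 TPM in Mtg16 KO, with a log2 fold change of -0.06 (SE 0.27). A sum over all exons cannot show whether an exon is missing, and each direction given here therefore rests on the labels. The 8 epithelial markers, among them Epcam and Krt19, summed to between 10051 and 12021 TPM in every library, against 15.6 to 25.2 TPM for 15 stromal and endothelial markers. WT replicate 1 stood apart, with a summed TPM of 40639 for 15 enterocyte markers, where the other 5 libraries held 7411 to 17632, and with 843 for 20 T cell markers, where the others held 132 to 482. In bulk tissue, fewer cells of a type and less RNA per cell cannot be told apart.

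Promoter sequences are shown for Axin2, which was higher in every Mtg16 KO library, and for Sp5 and Nkd1, which are Wnt targets too but whose groups overlapped. Each is the 250 bases before an annotated RefSeq start on the + strand of GRCm38.p6, at chr11:108920099-108920348 for Axin2, chr2:70474673-70474922 for Sp5 and chr8:88527383-88527632 for Nkd1, with the annotated genes of Axin2 and Nkd1 beginning further upstream. Capitals mark the letters CTTTGA or CTTTGT, the core that TCF/LEF proteins recognize, and CAGCTG, an E-box of the kind bound by factors such as ATOH1, on either strand.
Axin2: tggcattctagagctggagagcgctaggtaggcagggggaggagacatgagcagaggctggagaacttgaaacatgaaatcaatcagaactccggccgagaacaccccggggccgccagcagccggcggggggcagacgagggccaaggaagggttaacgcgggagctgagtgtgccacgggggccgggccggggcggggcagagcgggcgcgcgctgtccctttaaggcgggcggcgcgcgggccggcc
Sp5: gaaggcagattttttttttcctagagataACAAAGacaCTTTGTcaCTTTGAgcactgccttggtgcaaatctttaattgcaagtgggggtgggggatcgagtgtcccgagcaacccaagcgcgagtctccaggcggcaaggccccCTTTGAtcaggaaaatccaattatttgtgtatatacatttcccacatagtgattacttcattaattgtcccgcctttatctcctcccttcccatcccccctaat
Nkd1: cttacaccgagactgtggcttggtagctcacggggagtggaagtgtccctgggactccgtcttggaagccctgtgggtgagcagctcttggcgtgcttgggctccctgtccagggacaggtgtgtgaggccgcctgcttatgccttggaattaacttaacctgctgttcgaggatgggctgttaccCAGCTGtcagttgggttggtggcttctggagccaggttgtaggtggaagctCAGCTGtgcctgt
The Sp5 window held 4 TCF/LEF core matches, beginning 221, 212, 204 and 104 bases before the start and sharing no bases. The Nkd1 window held CAGCTG at 64 and 13 bases before the start, and the Axin2 window held none of these letters. Among 32851 windows of the same length, CTTTGA occurred in 13.8%, CTTTGT in 16.5% and CAGCTG in 13%. RefSeq windows were matched for 7 of the 10 genes, 12 windows in all because Lef1, Tcf7 and Tcf7l2 have several starts, and 2, 3 and 3 of the 12 held these letters in the same order. No window was available for Myc, Sox9 and Ccnd1, so Axin2 alone stands for the genes that were higher in every Mtg16 KO library. The match of a short word describes the sequence and does not show that a protein binds there.

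In the plot of TPM by library, levels of the 10 genes spanned from Ccnd1, with a mean of 134 TPM over the 6 libraries, to Lef1, with 0.43 TPM. The WT order was Ccnd1, Axin2, Tcf7l2, Myc, Sox9, Cd44, Tcf7, Sp5, Nkd1 and Lef1, and in Mtg16 KO it was the same except that Myc stood above Tcf7l2. Within WT, the ranges of neighbours in this order overlapped from Ccnd1 through Myc, between Sox9 and Cd44, and between Tcf7 and Sp5, and they were separate at the other steps. Ccnd1 and Axin2 nevertheless kept their order in each library, with a ratio of Axin2 to Ccnd1 TPM between 0.612 and 0.748.

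**Figure D1:**
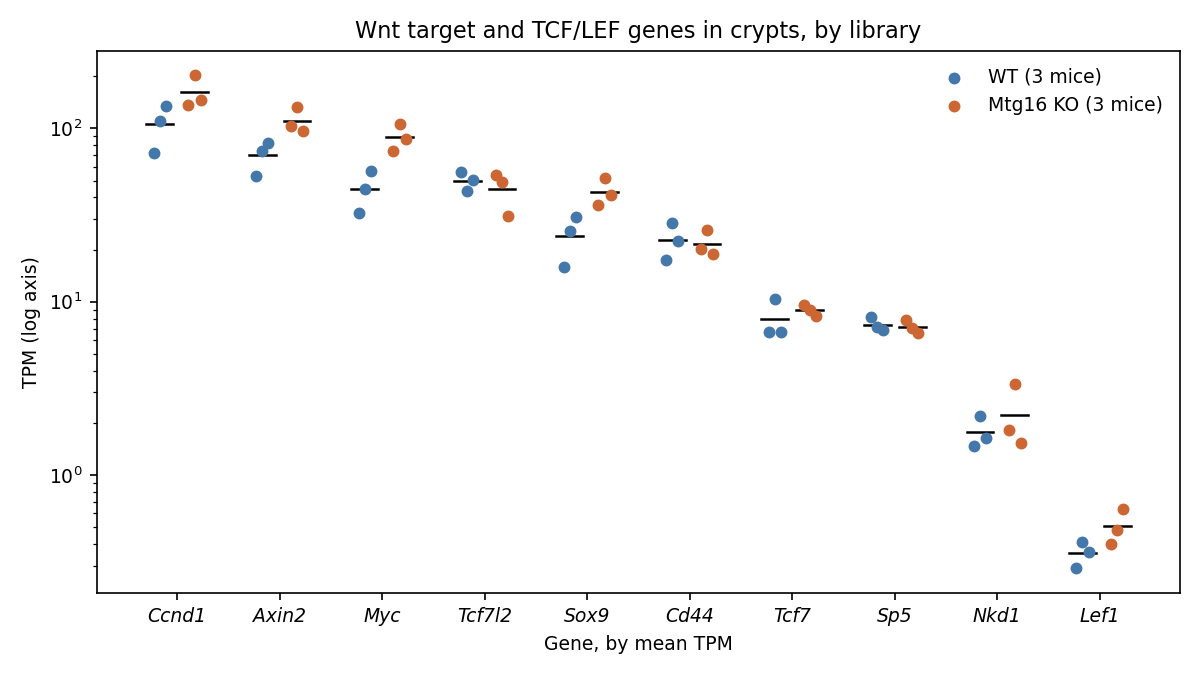
TPM of the 10 genes on a log axis, genes ordered by mean TPM, with a point per library and a bar at each group mean. Axin2, Myc, Sox9 and Ccnd1 show all 3 Mtg16 KO points above all 3 WT points, and the groups of the other 6 genes overlap.

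The genotypes were compared with limma on log2(TPM + 1) across 12268 genes whose TPM averaged 1 or more, with Benjamini-Hochberg adjustment over all of them and a call at an adjusted p under 0.1. Lef1 fell below that level, so 9 of the 10 genes were tested. None of the 9 was called, and 0.0326% of all tested genes were, which is 4 genes. At an unadjusted p under 0.05, 4 of the 9 were higher and 0 lower in Mtg16 KO, where 6.53% of all tested genes were higher and 8.05% lower. These 4, Axin2, Myc, Sox9 and Ccnd1, were also those whose groups did not overlap, which was so for 9.94% of all tested genes in the higher and 11.1% in the lower direction. The median log2 fold change was 0.19 for the 9 genes and -0.03 for all tested genes, and 6 of the 9 values were above zero. The median of the 9 was 0.11 without WT replicate 1, 0.37 without WT replicate 2 and 0.35 without Mtg16 KO replicate 3, and it was 0.41 for the 8 genes left by a filter at 5 TPM.

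**Figure D2:**
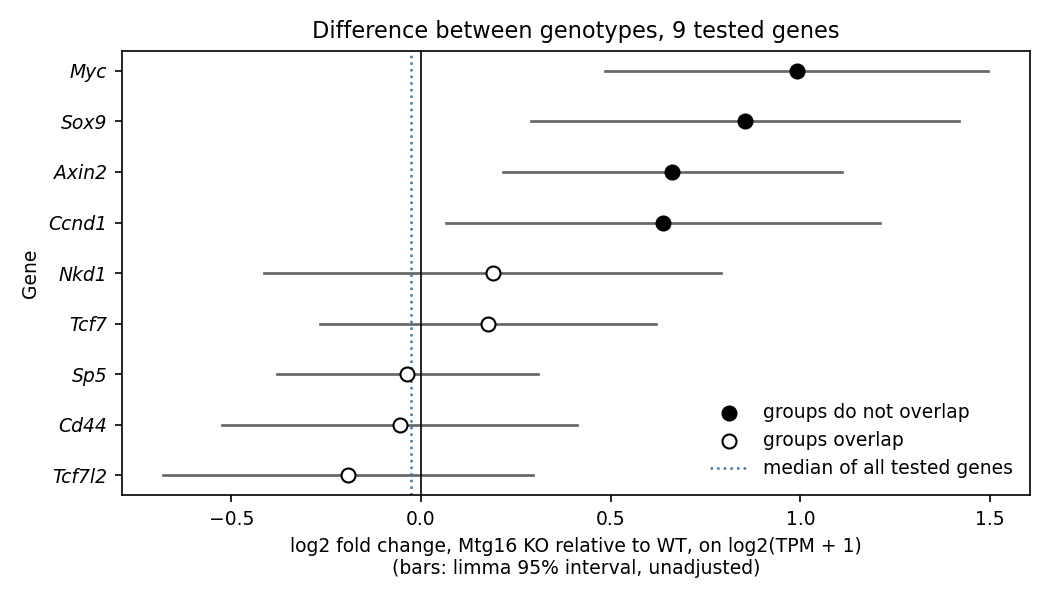
Difference in log2(TPM + 1) between Mtg16 KO and WT for the 9 tested genes, with the unadjusted 95% interval of limma, filled points where the groups do not overlap, and a dotted line at the median of all tested genes. Only the intervals of Myc, Sox9, Axin2 and Ccnd1 lie to the right of zero.

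Among the TCF/LEF factors, which carry β-catenin on DNA, Tcf7l2 was the most abundant. Tcf7l2 (chromosome 19, 55741797 to 55933659), which encodes TCF4, the main factor of this family in the crypt, had 56.1, 43.5 and 50.5 TPM in WT and 53.6, 49.1 and 31.1 TPM in Mtg16 KO. The groups overlapped, and the lowest value was that of Mtg16 KO replicate 3. Its log2 fold change was -0.19 (SE 0.21, 95% interval -0.68 to 0.30, limma adjusted p = 0.681), and without that library it was 0.042. Tcf7 (chromosome 11, 52246527 to 52283383), which encodes TCF1 and is itself a Wnt target, had 6.66, 10.4 and 6.68 TPM in WT and 9.52, 8.92 and 8.32 TPM in Mtg16 KO. Only WT replicate 2 lay above the knockout values. The log2 fold change of Tcf7 was 0.18 (SE 0.19, 95% interval -0.27 to 0.62, limma adjusted p = 0.675), and 0.37 without WT replicate 2.

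Lef1 (chromosome 3, 131110297 to 131224357), a factor of the same family that is also a Wnt target, was near the bottom of the scale with 0.29, 0.41 and 0.36 TPM in WT and 0.40, 0.48 and 0.64 TPM in Mtg16 KO. Its groups overlapped by a single value, and at this level it was not tested. Tcf7l1, which encodes TCF3, the member of the family best known as a repressor, was listed at 0.19 to 0.37 TPM over the 6 libraries. The ratio of Tcf7l2 to Tcf7 within each library lay between 4.17 and 8.42 in WT and between 3.74 and 5.63 in Mtg16 KO, and it overlapped (exact permutation test, two-sided, p = 0.3). TCF1 and LEF1 are also made by T cells. The summed TPM of the 20 T cell markers was 843, 240 and 482 in WT and 410, 303 and 132 in Mtg16 KO. Tcf7 and Lef1 were lowest in WT replicate 1, where that sum was highest, while the Mtg16 KO libraries ranked alike for Tcf7 and the sum, and the part of T cells in their levels was not tested.

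Among the feedback inhibitors, Axin2 and Nkd1 gave different pictures. Axin2 (chromosome 11, 108917828 to 108950783) encodes a scaffold of the β-catenin destruction complex and is widely used as a readout of Wnt activity. It had 53.3, 74.2 and 82.5 TPM in WT and 102.7, 132 and 96.9 TPM in Mtg16 KO, so every knockout library was above every WT library. The means differed by a ratio of 1.58, with an SD of 15 TPM in WT and 18.9 TPM in Mtg16 KO (n = 3 each). The log2 fold change of Axin2 was 0.66 (SE 0.19, 95% interval 0.22 to 1.11, limma adjusted p = 0.263), and the exact permutation test gave p = 0.1 (two-sided), the smallest that 3 mice against 3 allow. Nkd1 (chromosome 8, 88521342 to 88594887), which encodes an inhibitor that binds Dishevelled, had 1.48, 2.20 and 1.64 TPM in WT and 1.82, 3.35 and 1.53 TPM in Mtg16 KO. A single knockout library, replicate 2, exceeded the WT range. Its log2 fold change was 0.19 (SE 0.26, 95% interval -0.41 to 0.79, limma adjusted p = 0.747), and -0.046 without that library.

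The transcription factor targets held both the largest and the smallest difference among the 9 tested genes. Myc (chromosome 15, 61985341 to 61990361), a driver of growth and proliferation, had 32.6, 44.8 and 57.2 TPM in WT and 73.9, 105.5 and 87.2 TPM in Mtg16 KO. The lowest knockout value was above the highest WT value. The means were 44.9 ± 12.3 and 88.8 ± 15.9 TPM (SD, n = 3 each), a ratio of 1.98, and the log2 fold change was 0.99 (SE 0.22, 95% interval 0.49 to 1.496, limma adjusted p = 0.224). Its unadjusted p stood at place 106 of the 12268 tested genes.

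Sox9 (chromosome 11, 112782210 to 112787757), which is needed for Paneth cells and is expressed in crypt stem and progenitor cells, had 15.8, 25.6 and 30.7 TPM in WT and 36.4, 51.7 and 41.6 TPM in Mtg16 KO. Again the groups were separate. The means were 24.0 ± 7.59 and 43.2 ± 7.80 TPM (SD, n = 3 each), and the log2 fold change of Sox9 was 0.85 (SE 0.24, 95% interval 0.29 to 1.42, limma adjusted p = 0.263). Sp5 (chromosome 2, 70474923 to 70477726), a zinc finger factor regarded as a direct β-catenin target in many tissues, had 8.11, 7.16 and 6.87 TPM in WT and 7.87, 7.05 and 6.61 TPM in Mtg16 KO. These were the steadiest values of the set, with a ratio of 1.23 between the highest and the lowest library. The log2 fold change of Sp5 was -0.04 (SE 0.15, 95% interval -0.38 to 0.31, limma adjusted p = 0.927), an interval whose upper bound lies under the estimates for Axin2, Myc, Sox9 and Ccnd1.

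Ccnd1 and Cd44 stand for cell cycle and adhesion. Ccnd1 (chromosome 7, 144929931 to 144939831), which encodes cyclin D1, had 71.8, 109.8 and 134.7 TPM in WT and 137.3, 202 and 146 TPM in Mtg16 KO. The groups were separate by a narrow margin between WT replicate 3 and knockout replicate 1. The means were 105 ± 31.7 and 162 ± 35.3 TPM (SD, n = 3 each), and the log2 fold change was 0.64 (SE 0.25, 95% interval 0.07 to 1.21, limma adjusted p = 0.312). Cd44 (chromosome 2, 102811141 to 102901669), a hyaluronan receptor of the crypt base that immune cells also carry, had 17.3, 28.4 and 22.4 TPM in WT and 20.1, 25.9 and 18.8 TPM in Mtg16 KO. All 3 knockout values lay inside the WT range. Its log2 fold change was -0.06 (SE 0.20, 95% interval -0.52 to 0.41, limma adjusted p = 0.913).

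Ratios of genes within a library do not depend on how the library was scaled, and 14 of them were computed. The ratio of Axin2 to Sp5 was 6.58, 10.4 and 12.0 in WT and 13.1, 18.8 and 14.7 in Mtg16 KO, without overlap, and the mean log2 ratio differed by 0.71 (exact permutation test, two-sided, p = 0.1, or 0.2 after Benjamini-Hochberg adjustment over the 14). The ratios of Myc and of Sox9 to Sp5 also did not overlap, with differences in log2 of 1.05 and 0.93, each at the same smallest p of 0.1 in the exact test. Ccnd1 to Sp5 differed by 0.68 and overlapped (exact permutation p = 0.2), because WT replicate 3 was above knockout replicate 1. The ratio of Axin2 to Myc was 1.64, 1.65 and 1.44 in WT and 1.39, 1.25 and 1.11 in Mtg16 KO. It was lower in Mtg16 KO without overlap (exact permutation p = 0.1, or 0.2 after adjustment over the 14). The ratio of Axin2 to Ccnd1 overlapped, with 0.743, 0.675 and 0.612 in WT and 0.748, 0.654 and 0.665 in Mtg16 KO (exact permutation p = 0.9). Measured against Epcam, an epithelial marker, Axin2, Myc and Sox9 differed by 0.74, 1.08 and 0.95 on the log2 scale without overlap, and Ccnd1 by 0.71 with overlap (exact permutation p = 0.2).

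The 4 genes that were higher shared their lowest and highest library, though not the order of Mtg16 KO replicates 1 and 3. WT replicate 1 held the lowest value of Axin2, Myc, Sox9 and Ccnd1 and Mtg16 KO replicate 2 the highest, with spans of 2.48-, 3.23-, 3.27- and 2.82-fold between them. In the map of deviations, WT replicate 1 lay between 0.69 and 0.95 below the mean of each of these genes on the log2(TPM + 1) scale, and the other WT libraries lay between 0.46 below and 0.08 above it. Deviations from the group means correlated among these 4 genes with Pearson's r between 0.916 and 0.987 over the 6 pairs of genes, across 6 libraries. All genes of a library share its depth and RNA composition, and group means were subtracted for each gene. Deviations of 5.54% of all tested genes correlated with those of Axin2 at r of at least 0.9. For Sp5 the same r with the 4 genes lay between -0.81 and -0.56, and 19.8% of all tested genes had an r of -0.5 or lower with Axin2.

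**Figure D3:**
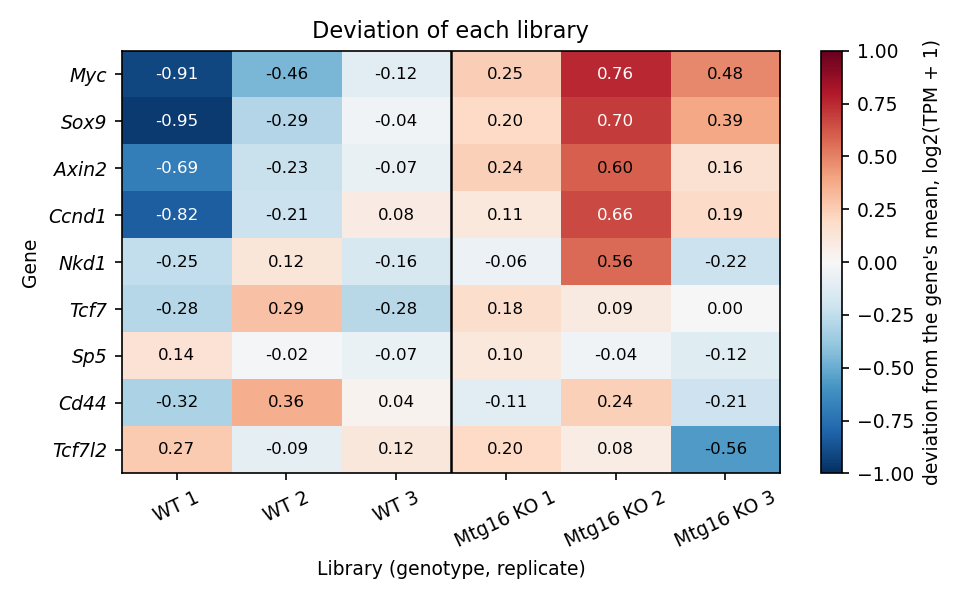
Deviation of each library from the gene's mean over the 6 libraries, in log2(TPM + 1), for the 9 tested genes, with the WT libraries left of the line. Myc, Sox9, Axin2 and Ccnd1 run from their lowest value in WT replicate 1 to their highest in Mtg16 KO replicate 2, and Sp5 stays within 0.14 of its mean.

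Outside the set, the tested genes whose log2(TPM + 1) was most like that of Axin2 were Arid5b, Lrrc31 and Wdr6, each with Pearson's r of 0.995 or 0.996 over the 6 libraries. Arid5b, which encodes a DNA-binding protein of the ARID family, had 14.1, 18.45 and 20.7 TPM in WT and 25.6, 31.7 and 22.8 TPM in Mtg16 KO. They were picked by that r, so the r of their deviations from the group means, between 0.990 and 0.995, adds no separate support. At r of at least 0.95 there were 113 such genes, so these 3 names are the top of a long list.

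Another 34 genes described as Wnt targets were listed, and 25 of them were tested. None was called by limma, 6 were higher and 0 lower at an unadjusted p under 0.05, and 7 were higher without overlap. Of all tested genes 6.53% were higher and 8.05% lower at that p, and 9.94% were higher without overlap. These shares also stand beside the counts for the lists below, where all 6 libraries were used. Of the 25 log2 fold changes 23 were above zero, with a median of 0.23. The count of 6 was 3 of 26 tested without WT replicate 1 and 2 of 25 without Mtg16 KO replicate 2. Over all tested genes, 1398 and 1027 then had that p in either direction, against 1789 as reported. The median of the list was 0.12 without WT replicate 1 and 0.38 without WT replicate 2. Zfp703, a co-repressor of the zinc finger class, had the lowest p in this list, with 43.6, 46.85 and 51.3 TPM in WT and 60.7, 81.2 and 63.6 TPM in Mtg16 KO (log2 fold change 0.52, SE 0.15, limma adjusted p = 0.263). Lgr5, the R-spondin receptor that marks crypt stem cells, followed with 6.02, 8.16 and 7.33 TPM in WT and 12.1, 20.2 and 9.94 TPM in Mtg16 KO. Slc12a2, a sodium-potassium-chloride cotransporter, had 78.3, 116.8 and 124 TPM in WT and 142, 222 and 155 TPM in Mtg16 KO. The genes for the EPHB2 and EPHB3 receptors, which sort cells along the crypt, had log2 fold changes of 0.03 and 0.30 (SE 0.21 and 0.26), and Ascl2, a stem cell regulator, one of 0.32 (SE 0.21), all with overlapping groups. Sp8, Lgr6 and Dkk1 were listed at 0 in all libraries.

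**Figure D4:**
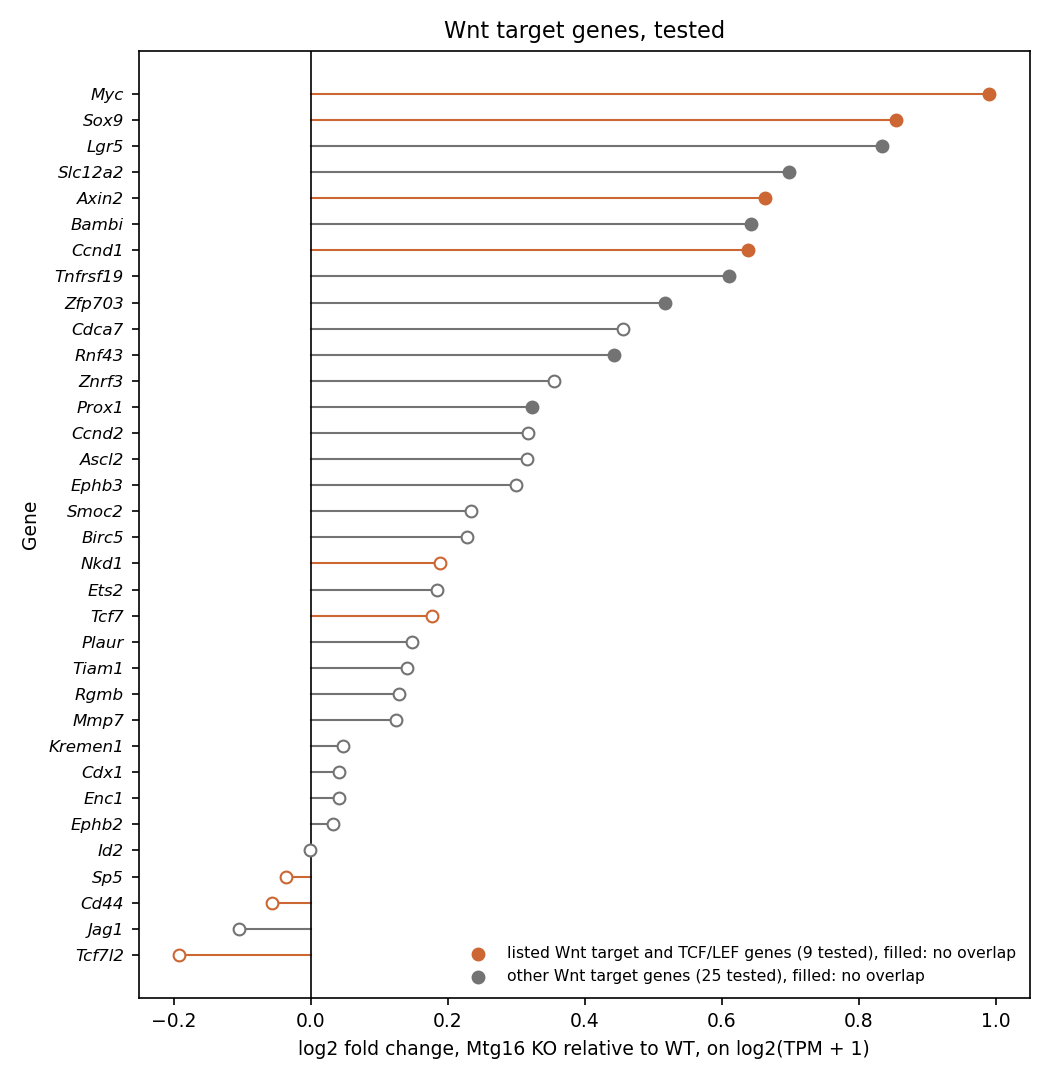
Log2 fold change on log2(TPM + 1), Mtg16 KO relative to WT, of the 9 tested genes of the set (orange) and 25 other Wnt targets (grey), filled where the groups do not overlap. Myc, Sox9, Lgr5 and Slc12a2 are at the top with values between 0.70 and 0.99, and Tcf7l2 is at the bottom at -0.19.

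Genes that act with or before the TCF factors were counted in the same way. Of 26 tested nuclear partners of β-catenin and TCF, limma called none and 0 had an unadjusted p under 0.05, and their median log2 fold change was -0.03. The lowest p among them was that of Ctnnbip1, an inhibitor that keeps β-catenin from TCF, with 28.0, 22.2 and 23.5 TPM in WT and 20.3, 21.3 and 20.9 TPM in Mtg16 KO, followed by Cby1, another antagonist of β-catenin, and the histone deacetylase gene Hdac2 at log2 fold changes of 0.24 and 0.28 (SE 0.14 and 0.17). Of 16 tested genes of Dishevelled and the destruction complex, none was called, 0 were higher and 2 lower at an unadjusted p under 0.05. These were Dvl1, which relays the receptor signal, and Gsk3a, a kinase of the complex, with log2 fold changes of -0.45 and -0.37 (SE 0.13 each). The next lowest p was that of Csnk1a1, a kinase of the same complex, at 0.15 (SE 0.13). Of 12 tested ligands and receptors, none was called by limma and 3 were higher at an unadjusted p under 0.05. They were Wls, needed to secrete Wnt proteins, with 18.3, 24.85 and 20.04 TPM in WT and 35.2, 39.6 and 38.4 TPM in Mtg16 KO, the R-spondin receptor gene Lgr4 with a log2 fold change of 0.59 (SE 0.11), and Wnt3, a ligand made by Paneth cells, with 0.65 (SE 0.26). The groups of Wnt3 overlapped, whereas those of Wls and Lgr4 did not.

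Lists tied to single members were also counted. Of 18 genes that are known MYC targets, limma called none, 0 were higher and 1, Ldha, was lower at an unadjusted p under 0.05, and the median log2 fold change was -0.04 with 9 above and 9 below zero. Without WT replicate 1, 6 of the 18 were lower at that p and the median was -0.19. With a score of enterocyte markers, themselves lower in Mtg16 KO, as a covariate, 0 of the 18 were above zero. In that fit 10 were lower at that p and the median was -0.39. Over all tested genes, 1290 of 12268 had that p in either direction with the score, and 1398 of 12216 without WT replicate 1. The median of the 18 was above zero, between 0.03 and 0.06, with quantile normalization, without WT replicate 3 and without Mtg16 KO replicate 1. Of 19 proliferation genes none was called, 1 was higher and 0 lower at an unadjusted p under 0.05, with a median log2 fold change of 0.13, beside the 0.64 of Ccnd1. Pcna, the replication clamp and the most abundant of them, had 202, 261 and 227 TPM in WT and 217, 240 and 333 TPM in Mtg16 KO, with overlapping groups.

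Markers of other cell types also differed among the libraries, with their extremes partly in other libraries than those of Axin2, Myc, Sox9 and Ccnd1. The 15 enterocyte markers summed to 40639, 14454 and 17632 TPM in WT and 15102, 8679 and 7411 TPM in Mtg16 KO, with all 15 log2 fold changes below zero and a median of -1.11. None was called by limma and 9 were lower at an unadjusted p under 0.05, and Apoa1, an apolipoprotein and the most abundant, ran from 9430 TPM in WT replicate 1 to 1570 TPM in Mtg16 KO replicate 3. The 12 Paneth cell markers summed to 16174, 28495 and 17517 TPM in WT and 41583, 31478 and 32386 TPM in Mtg16 KO, with 11 values above zero and a median of 0.99. None was called by limma and 10 were higher at an unadjusted p under 0.05, with the defensin gene Defa24 the most abundant at 3996, 8609 and 5171 TPM in WT and 13212, 11129 and 11325 TPM in Mtg16 KO. The 18 tested T cell markers, led by Gzma, were all below zero, with a median of -0.72, 0 called by limma and 4 lower at an unadjusted p under 0.05. Of the genes that define T cells and leukocytes, Cd3e had 31.0, 9.95 and 19.3 TPM in WT and 19.1, 10.6 and 6.20 TPM in Mtg16 KO, and Cd3g and Ptprc likewise were highest in WT replicate 1, at 43.3 and 17.1 TPM, and lowest in Mtg16 KO replicate 3, at 8.16 and 4.91 TPM. Without WT replicate 1 the medians were -0.68, 0.68 and -0.32 for enterocytes, Paneth cells and T cells, and 5, 6 and 0 genes had an unadjusted p under 0.05 in the direction given. The enterocyte count of 9 was 13 without WT replicate 2, 13 without Mtg16 KO replicate 1 and 8 without WT replicate 3. It was 3 without Mtg16 KO replicate 2 and 4 without Mtg16 KO replicate 3. The T cell count of 4 was 13 without WT replicate 2, 6 without Mtg16 KO replicate 1, 1 and 2 without WT replicate 3 and Mtg16 KO replicate 2, and 0 without Mtg16 KO replicate 3, where the median was -0.34. That median was -1.10 without WT replicate 2, and 0.36 with the enterocyte score. For the 12 Paneth cell markers the median with the score was 0.56, and 1 was higher at an unadjusted p under 0.05. Over all tested genes, the count at an unadjusted p under 0.05 was 1789 as reported, 1290 with the score and between 1027 and 2030 with 1 mouse left out. When a score of the enterocyte markers was added to the model as a covariate, the log2 fold change was 0.35 for Axin2 (95% interval -0.13 to 0.83), 0.56 for Myc (0.08 to 1.04), 0.33 for Sox9 (-0.17 to 0.83) and 0.16 for Ccnd1 (-0.39 to 0.71), and the median of the 25 other Wnt targets was 0.01. The 15 markers of the score were all lower in Mtg16 KO, so score and genotype cannot be fully told apart in that fit. Without WT replicate 1 and without the score, the values of Axin2, Myc, Sox9 and Ccnd1 were 0.48, 0.78, 0.59 and 0.39. The part of enterocytes, Paneth cells and T cells in the differences was not tested.

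**Figure D5:**
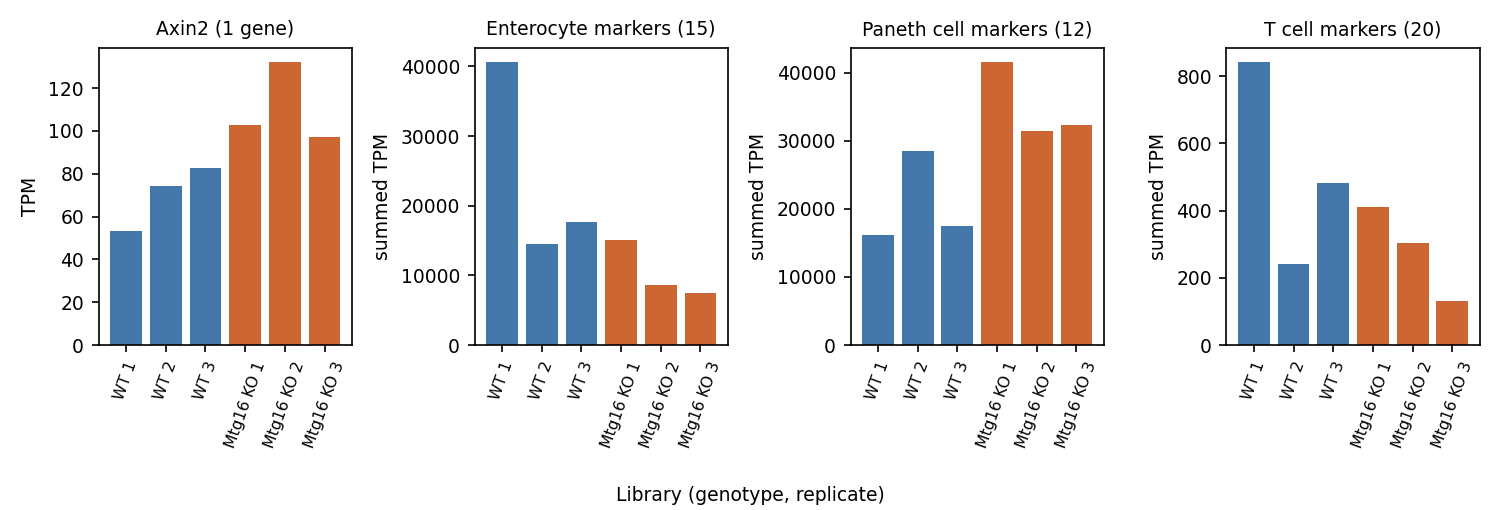
TPM of Axin2 and summed TPM of the enterocyte, Paneth cell and T cell marker lists in each library (bars start at zero, blue WT, orange Mtg16 KO). WT replicate 1 holds the lowest Axin2 value, 53.3, and the highest enterocyte and T cell sums, 40639 and 843.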

How the data were processed

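Per the labels, libraries were made from 200 ng of RNA with ribosomal depletion and 14 PCR cycles. The authors deposited TPM from RSEM, with 2 decimals, for 24736 symbols. Their processing notes name cutadapt 1.9.1, STAR 2.5.2a, RSEM 1.3.0, DESeq2 1.12.3 and mm10, and the annotation and strand setting are not given in the sources used here. Each library sums to the same total, so the depth is unknown and no counting interval is given.

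Values were transformed as log2(TPM + 1), a scale on which differences of weakly expressed genes are too small. Genes averaging 1 TPM or more were tested with limma 3.58.1 (R 4.3.3, moderated test with an intensity trend, no covariate, Benjamini-Hochberg adjustment), at an adjusted p under 0.1. The authors' DESeq2 test needs counts and was not used. Single values were compared by two-sided exact permutation tests (scipy 1.17.1). The calculation was tested on simulated data. Labels do not say that the mice came from separate litters or days, so p-values measure the spread between these mice. Positions and promoters come from RefSeq GRCm38.p6, which is the mm10 assembly.

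The 10 genes and all lists were chosen with earlier results of these data known. Named genes are the 10, Cbfa2t3, Tcf7l1, the 3 lowest p-values of each pathway list, the most abundant gene of each marker list with Cd3e, Cd3g and Ptprc, and the 3 genes most like Axin2. The result of 1 marker list is not reported here. Ephb2, Ephb3, Ascl2, Epcam, Sp8, Lgr6, Dkk1, Mcpt1 and Mcpt2 were added after their values were seen. Alternatives were a pseudocount of 0.1, no filter, a filter at 5 TPM, rescaling by median ratios, no trend, quantile normalization, the replicate block, an enterocyte score, each mouse left out and an adjusted p under 0.05.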

Additional observations from a re-analysis of the deposited data

How the results depend on the processing

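Among the 9 tested genes of the set, limma called 0 in every alternative except the replicate block, which gave 4. The number of all tested genes called, 4 as reported, was 0 with no filter, with rescaling by median ratios, without the intensity trend and at an adjusted p under 0.05, where 2187, 1818, 1754 and 1789 genes had an unadjusted p under 0.05. It was 1 with quantile normalization or the enterocyte score, 15 with a filter at 5 TPM, and between 0 (without Mtg16 KO replicate 3, with 1058 at that p) and 40 (without WT replicate 1) with 1 mouse left out. Median log2 fold change of all tested genes lay between -0.06 and 0.02 over the alternatives. It was -0.03 as reported, -0.007 with rescaling by median ratios and 0.02 with quantile normalization, so rescaling moved it by less than 0.1. The median of the set was 0.41 with the filter at 5 TPM and lay between 0.11 and 0.37 with 1 mouse left out. Axin2, Myc, Sox9 and Ccnd1 stayed above zero in all alternatives. Of the set, 1 gene had an unadjusted p under 0.05 with the enterocyte score, and 3 or 4 did with 1 mouse left out. Of all tested genes, 1290 did with the score and between 1027 and 2030 with 1 mouse left out. Groups did not overlap for 5 genes of the set without WT replicate 2, where Tcf7 was added. Of all tested genes 3989 of 12263 then did not overlap in either direction, against 2579 of 12268 as reported. With 1 mouse left out, log2 fold changes lay between 0.48 and 0.79 for Axin2 and between 0.78 and 1.18 for Myc. They lay between 0.59 and 1.05 for Sox9 and between 0.39 and 0.84 for Ccnd1. Signs turned for genes near zero. With the enterocyte score Nkd1 was -0.014, Sp5 0.13 and Tcf7l2 0.17. With 1 mouse left out Nkd1 lay between -0.046 and 0.35, Sp5 between -0.096 and 0.026, Cd44 between -0.23 and 0.11, and Tcf7l2 between -0.34 and 0.042. The cause was not tested.

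The groups share replicate numbers, but same-numbered mice are different animals. After subtraction of the group means, libraries of the same number had r = 0.429, 0.0753 and 0.237. Those of different numbers had r between -0.331 and 0.198. Each Mtg16 KO library correlated best with the WT library of its own number. From the WT side, replicate 2 correlated best with Mtg16 KO replicate 3 (r = 0.198). The numbers were not taken to pair the samples, and whether they mark a shared day or batch was not tested. With the replicate block 1201 of all tested genes were called and 4 of the set, with limma adjusted p = 0.0148 for Myc, 0.0293 for Sox9, 0.0509 for Axin2 and 0.0744 for Ccnd1 at the log2 fold changes as reported.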

Other observations

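Other lists that share factors or cells with the Wnt program were counted beside it. Of 13 tested enteroendocrine markers, all 13 had log2 fold changes above zero with a median of 0.62, and limma called none with 9 higher at an unadjusted p under 0.05. Of these markers Gip, the most abundant, had overlapping groups and a value of 0.05 (SE 0.19). Of the 8 goblet cell markers 3 were above and 5 below zero, with a median of -0.42, and their summed TPM overlapped between the groups. Limma called 0, and 2 were lower at an unadjusted p under 0.05. Zg16, the most abundant, had 4336, 2776 and 1707 TPM in WT and 1636, 925 and 949 TPM in Mtg16 KO.

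Myc is also an immediate early gene, and 13 tested genes of that class, led by Zfp36, had a median log2 fold change of -0.47 with 12 of 13 below zero, 0 called by limma and 3 lower at an unadjusted p under 0.05. Zfp36 had 172, 97.4 and 110.8 TPM in WT and 100.4, 83.2 and 53.0 TPM in Mtg16 KO, with overlapping groups. The 12 tested B cell and myeloid markers, of which Cd52 was the most abundant, had a median of -0.15. Limma called 0, and 2 were lower at an unadjusted p under 0.05. These 2 were the mast cell protease genes Mcpt1 and Mcpt2, with log2 fold changes of -2.49 and -1.60 (SE 0.34 and 0.38). Cd52 had overlapping groups. The 5 tested stromal markers, led by Vim, had a median of 0.15, with 0 called and 0 at an unadjusted p under 0.05.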
